A study of Rattus norvegicus with 16 samples.

Results

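Homer1, Homer2 and Homer3 were followed on an Agilent rat array through every probe that carried one of these gene names. These were 3 genes of 35199 gene names and 4 probes of 41012 probes for transcripts, with 2 probes for Homer1 and 1 each for Homer2 and Homer3. All 4 probes passed the filter on dim signals and were measured in all 16 samples. The samples were primary cultures of hippocampal neurons, made at embryonic day 18 to 19 from embryos of the Sprague-Dawley strain, of either sex. In 4 cultures PRR7, a proline-rich membrane protein, was knocked down by a pTRIP lentivirus that carried an shRNA against its coding region. Another 4 cultures received a lentivirus with a nontargeting shRNA. In 4 cultures full-length PRR7 was overexpressed from a FUGW lentivirus, and 4 cultures received no virus. The labels give 1 shRNA target sequence, and no group received an overexpression virus without PRR7. The samples are named as biological replicates.

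Homer proteins are scaffolds of the excitatory synapse. Their N-terminal EVH1 domain binds a proline-rich motif in group 1 metabotropic glutamate receptors, Shank proteins, IP3 receptors and other partners. The long forms of Homer1, and Homer2 and Homer3, also carry a C-terminal coiled coil, through which they assemble into multimers and link these partners. The short form Homer1a is an immediate early gene product of neuronal activity. It keeps the EVH1 domain, lacks the coiled coil, ends in its own 3' UTR, and competes with the long forms for partners.

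Each array carried 2 samples of the same group in 2 dyes. The knockdown and nontargeting arrays lay on one slide, and the overexpression and untransduced arrays on another, scanned on another day. For groups on different slides, effects of slide and of group cannot be told apart. A sample had 49.2% to 69.6% of its probes well above background, and samples of a group correlated at 0.9767 to 0.998 over the 27294 probes kept. None of the 41012 probes was named Prr7 and none held the 19-base shRNA target (0 of 41012), so the targeted gene was not checked in these samples.

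The first question was which Homer1 transcript each Homer1 probe reads. The array annotation gives no genome position for either of them, and lists both as unmapped on rn4. The transcript records listed for each probe separated them, since no record was shared. One probe is listed with 2 records, among them the original cDNA of the short form, and starts at base 5102 of its record. It is called the short-form probe here. The other is listed with 4 records, among them a RefSeq mRNA, and starts at base 2709. It is called the long-form probe because the short-form cDNA is not among its records. No rat transcripts were at hand to place either probe by sequence, so both names rest on the listed records. Of 544 pairs of neighbouring mapped probes at most 300 bases apart, 526 (96.7%) had listed starts that matched their genome distance within 2 bases, so the listed start was read as a position in the record. All 3 forward reading frames of both Homer1 probes held a stop codon, so neither lies wholly in coding sequence. For the Homer2 and Homer3 probes 2 of 3 frames were open. In the current RefSeq annotation (GRCr8), Homer1 lies on chromosome 2 from 26279012 to 26388279, Homer2 on chromosome 1 from 144968207 to 145069022 and Homer3 on chromosome 16 from 19166141 to 19176701. The Homer2 probe is placed on rn4 at chr1:137828766-137828825 and the Homer3 probe at chr16:19624630-19624689, both on the minus strand.

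The probe sequences, 5' to 3' as on the array, show how unlike the targets of the probes are. For the Homer1 probes 30 of the 60 bases are given, and the capitals mark the word CTAACTC, described further on.
Homer1 short-form probe, bases 1 to 30: aacagaagctcattgacaaactaaagtgac
Homer1 long-form probe, bases 31 to 60: gtatgcttgagtatCTAACTCtggagtcaa
Homer2 probe: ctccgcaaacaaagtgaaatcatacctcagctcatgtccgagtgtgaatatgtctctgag
Homer3 probe: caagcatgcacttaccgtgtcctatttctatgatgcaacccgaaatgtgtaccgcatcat
The longest run of bases shared by any pair of the 4 probes was 6 or 7 bases. GC content was 36.7% for the short-form probe, 40% for the long-form probe and 45% for the others.

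The 2 Homer1 probes were selected on their measured values, since their log2 differences had opposite signs in earlier results of these data. Their values in every comparison that uses knockdown or nontargeting cultures are therefore a description, given without a test. Homer1 was tested between overexpression and untransduced cultures, and Homer2 and Homer3 in all comparisons. All values are normalised log2 intensities of 1 probe, so a level is compared between samples and never between probes.

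The short-form probe read 8.95, 8.89, 8.42 and 8.57 in knockdown cultures, against 10.27, 10.37, 10.16 and 10.35 in nontargeting cultures. It read 8.97, 9.11, 9.42 and 8.85 in overexpression cultures, against 9.65, 9.86, 9.01 and 9.47 in untransduced cultures. The nontargeting cultures stood above every other culture. The share of all probes with such a pattern was not counted, and shares for pairs of groups are given below. In order of the mean, nontargeting cultures (10.29 ± 0.10) came before untransduced (9.50 ± 0.36), overexpression (9.09 ± 0.25) and knockdown cultures (8.71 ± 0.25; SD, n = 4 each). The ranges of untransduced and overexpression cultures overlapped, and so did those of overexpression and knockdown cultures.

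The short-form probe was 2.99-fold lower in knockdown than in nontargeting cultures, a log2 difference of -1.58 ± 0.24 (SE). The groups did not overlap, as was the case for 37.7% of all probes in this comparison. Leaving out the knockdown array with replicates 1 and 2 gave -1.79, and leaving out the one with replicates 3 and 4 gave -1.37. Overexpression cultures lay 2.30-fold below nontargeting cultures, without overlap (36.7% of all probes). Nontargeting cultures lay 1.73-fold above untransduced cultures, also without overlap (32.2% of all probes). Knockdown cultures were 1.73-fold lower than untransduced cultures, at -0.79, and these groups did not overlap either (29.6% of all probes). The knockdown and nontargeting samples each enter several of these differences, which are therefore not independent.

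The long-form probe ran the other way. It read 11.54, 11.58, 11.60 and 11.65 in knockdown cultures, against 9.74, 9.70, 9.81 and 10.03 in nontargeting cultures. It read 11.24, 10.55, 11.78 and 11.22 in overexpression cultures, against 10.81, 11.03, 11.46 and 11.95 in untransduced cultures. Here the nontargeting cultures stood below every other culture, while the ranges of the other 3 groups overlapped one another. For this pattern too the share of all probes was not counted. The means were 11.59 ± 0.05 in knockdown, 11.31 ± 0.50 in untransduced, 11.20 ± 0.50 in overexpression and 9.82 ± 0.15 in nontargeting cultures (SD, n = 4 each).

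The long-form probe was 3.41-fold higher in knockdown than in nontargeting cultures, a log2 difference of 1.77 ± 0.33 (SE), without overlap. It was 2.59-fold higher in overexpression than in nontargeting cultures and 2.81-fold lower in nontargeting than in untransduced cultures, again without overlap. Groups did not overlap for 37.7%, 36.7% and 32.2% of all probes in these 3 comparisons. Between knockdown and untransduced cultures the log2 difference was 0.28, with overlapping ranges. Without the untransduced array of replicates 1 and 2 this difference was -0.11, and without that of replicates 3 and 4 it was 0.67. The long-form probe is printed in 10 spots on each array. These spots read the same RNA in the same hybridisation and are not replicates. They show only how evenly the probe was read, and add no support to a difference used to select it. Each of the 10 spots was higher in knockdown than in nontargeting cultures, by 1.70 to 1.95, and each was lower in nontargeting than in untransduced cultures, with differences of -1.72 to -1.37. The SD of the spots within a sample was 0.25 to 0.37.

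**Figure D1:**
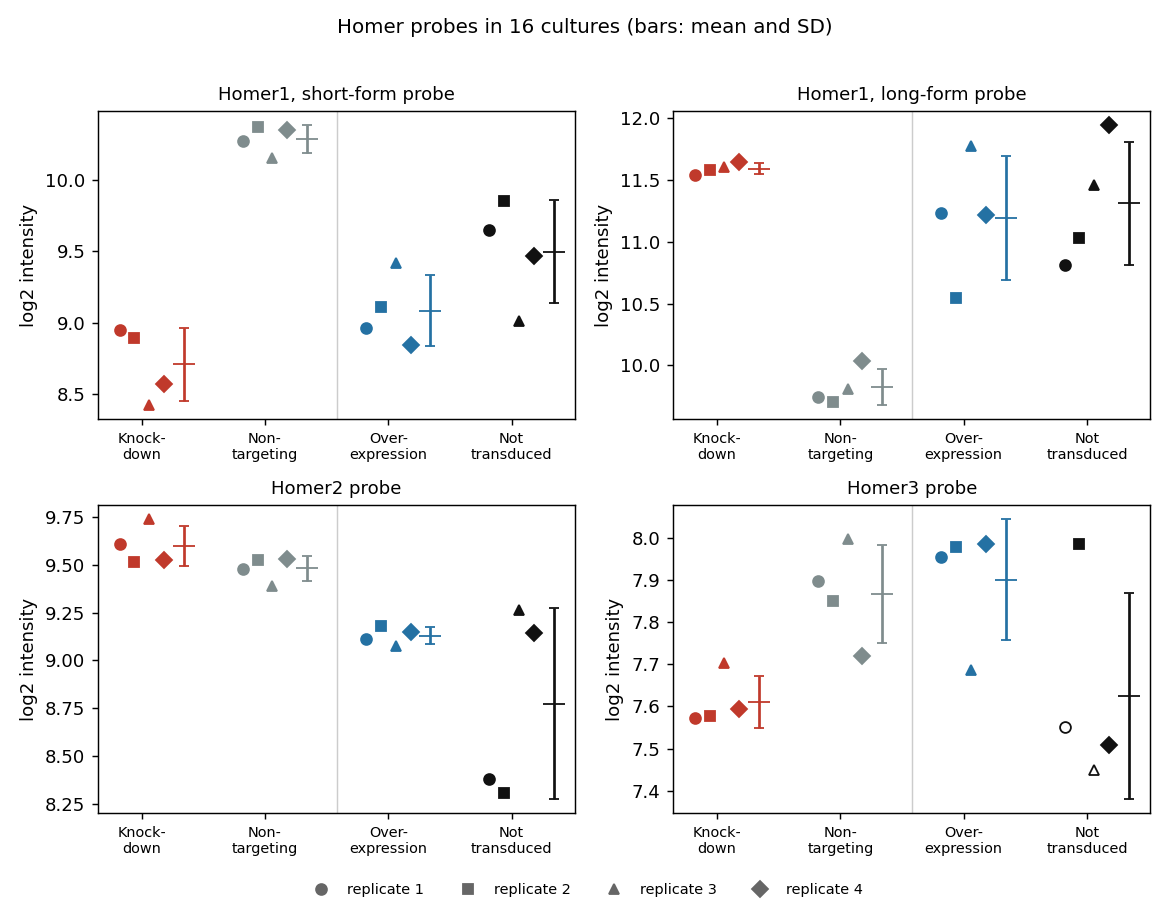
Normalised log2 intensity (vertical axis) of the 4 Homer probes in each of 16 cultures, by group; symbols mark replicates, bars give the mean and SD (n = 4 each), the grey line separates the slides and open symbols were not well above background. Nontargeting cultures lie highest for the short-form probe (10.16 to 10.37) and lowest for the long-form probe (9.70 to 10.03).

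Because both Homer1 probes were measured in every culture, the difference between them was also followed, set to 0 at the mean of untransduced cultures. This short-over-long balance was -1.07 ± 0.29 in knockdown cultures, against 2.28 ± 0.17 in nontargeting cultures (SD, n = 4 each). It was -0.29 ± 0.45 in overexpression cultures, against 0 ± 0.75 in untransduced cultures. Knockdown cultures had a balance 10.2-fold below that of nontargeting cultures, a log2 difference of -3.35 that adds up the opposite differences of the 2 probes. The probes were selected for those opposite signs, so a wide gap was built in by that choice. Its size is a description without a test. The nontargeting cultures ranged from 2.13 to 2.49, and the highest of the other 12 cultures reached 0.65. Untransduced cultures split by array, with 0.65 and 0.64 on the array of replicates 1 and 2, and -0.63 and -0.66 on that of replicates 3 and 4. All knockdown cultures, at -1.37 to -0.78, lay below all untransduced cultures. The balance was not computed for other pairs of probes, so no share over all probes stands beside these separations.

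**Figure D2:**
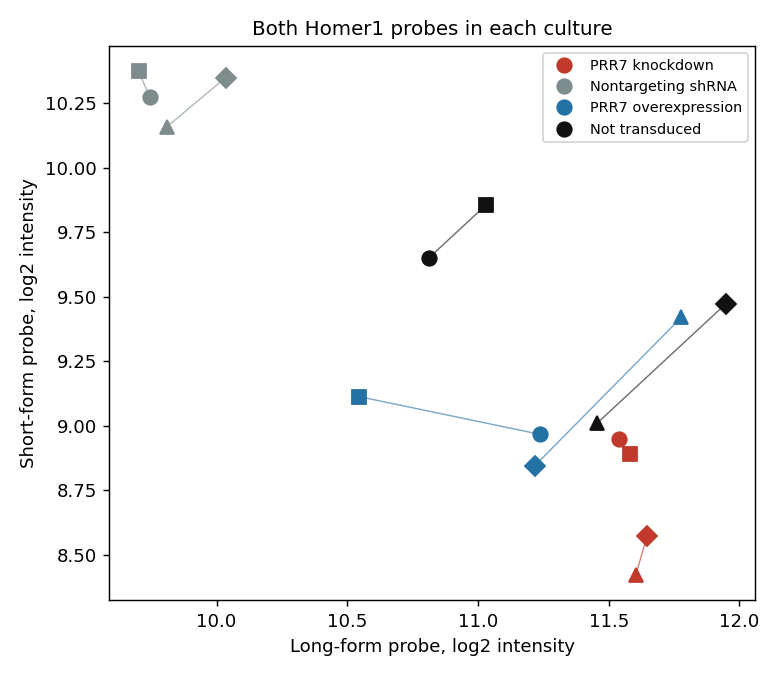
Short-form probe (vertical axis) against long-form probe (horizontal axis), both as normalised log2 intensity, in each of 16 cultures; lines join the 2 cultures hybridised to the same array, colours mark groups and symbols replicates 1 (circle) to 4 (diamond). The 4 nontargeting cultures sit alone at high short-form and low long-form values, and the knockdown cultures lie at the opposite corner.

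Overexpression of PRR7 was the comparison in which Homer1 was tested. The short-form probe differed between overexpression and untransduced cultures by -0.41 on the log2 scale (95% interval -0.92 to 0.10) and did not pass (limma, adjusted p = 1.00; unadjusted p = 0.108). The difference was -0.25 without overexpression replicate 4, -0.15 without the untransduced array of replicates 1 and 2, and -0.67 without that of replicates 3 and 4. The long-form probe differed by -0.12 (95% interval -0.81 to 0.58) and did not pass either (limma, adjusted p = 1.00). Neither probe separated the groups, and 6.5% of all probes did. Of all 27294 probes 1 passed in this comparison (0.00366%), while 1045 had an unadjusted p under 0.05 (3.83%). The sign of the long-form difference was not stable, since it was 0.09 without overexpression replicate 2 and 0.06 without untransduced replicate 4.

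Homer2, a long coiled-coil family member, read 9.61, 9.51, 9.74 and 9.53 in knockdown cultures, against 9.48, 9.53, 9.39 and 9.53 in nontargeting cultures. It read 9.11, 9.18, 9.08 and 9.15 in overexpression cultures, against 8.38, 8.30, 9.26 and 9.14 in untransduced cultures. The spread within groups was small except among untransduced cultures, whose replicates 1 and 2 lay below all other cultures. Those replicates share an array, which averaged 8.34, against 9.20 for the other untransduced array.

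Knockdown and nontargeting cultures differed by 0.11 ± 0.19 (SE) in Homer2, with overlapping ranges and no call (limma, adjusted p = 0.736, 95% interval -0.29 to 0.52). In this comparison 21.1% of all probes passed. Homer2 was 1.77-fold higher in knockdown than in untransduced cultures, by 0.82 (limma, adjusted p = 0.0127), where 10.1% of all probes passed. It was 1.64-fold higher in nontargeting than in untransduced cultures, by 0.71 (limma, adjusted p = 0.0153), where 22.2% of all probes passed. In both comparisons all 4 cultures of the virus group lay above all 4 untransduced cultures, and the groups lay on different slides. Groups did not overlap for 29.6% of all probes in the comparison with knockdown cultures and for 32.2% in that with nontargeting cultures. Both calls were lost without the untransduced array of replicates 1 and 2, with differences of 0.39 (limma, adjusted p = 0.104) and 0.28 (limma, adjusted p = 0.189). They were also lost when each array counted as 1 value (limma, adjusted p = 0.109 and 0.0961).

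Between overexpression and untransduced cultures on the same slide, Homer2 differed by 0.36 (95% interval -0.05 to 0.76) and did not pass (limma, adjusted p = 1.00). This value too turned on the untransduced arrays. It was -0.07 without the array of replicates 1 and 2, and 0.79 without that of replicates 3 and 4 (limma, adjusted p = 0.0491). Against nontargeting cultures, overexpression cultures differed by -0.35 on the log2 scale without overlap (36.7% of all probes). This difference did not pass (limma, adjusted p = 0.205), where 22.5% of all probes passed. In a fit of these 2 groups alone it did (limma, adjusted p = 0.0379). Knockdown cultures lay above overexpression cultures by 0.47 without overlap (36.1% of all probes) and did not pass (limma, adjusted p = 0.136), where 10.3% of all probes passed. With those 2 groups alone the adjusted p from limma was 0.0184.

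Homer3, also a coiled-coil member of the family, read 7.57, 7.58, 7.70 and 7.59 in knockdown cultures, against 7.90, 7.85, 8.0 and 7.72 in nontargeting cultures. It read 7.95, 7.98, 7.69 and 7.98 in overexpression cultures, against 7.55, 7.98, 7.45 and 7.51 in untransduced cultures. The signal was well above background in 14 of 16 cultures, and in 2 of 4 untransduced ones. All knockdown cultures lay below all nontargeting cultures, the highest at 7.70 and the lowest nontargeting one at 7.72; groups did not overlap for 37.7% of all probes. The difference of -0.26 ± 0.17 (SE) did not pass (limma, adjusted p = 0.336). Homer3 did not pass in any of the 6 comparisons. Its differences were 0.28 for overexpression over untransduced cultures, 0.24 for nontargeting over untransduced cultures, -0.01 for knockdown over untransduced cultures, 0.03 for overexpression over nontargeting cultures and -0.29 for knockdown over overexpression cultures. The limma adjusted p-values of all 6 lay between 0.321 and 1.00.

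**Figure D3:**
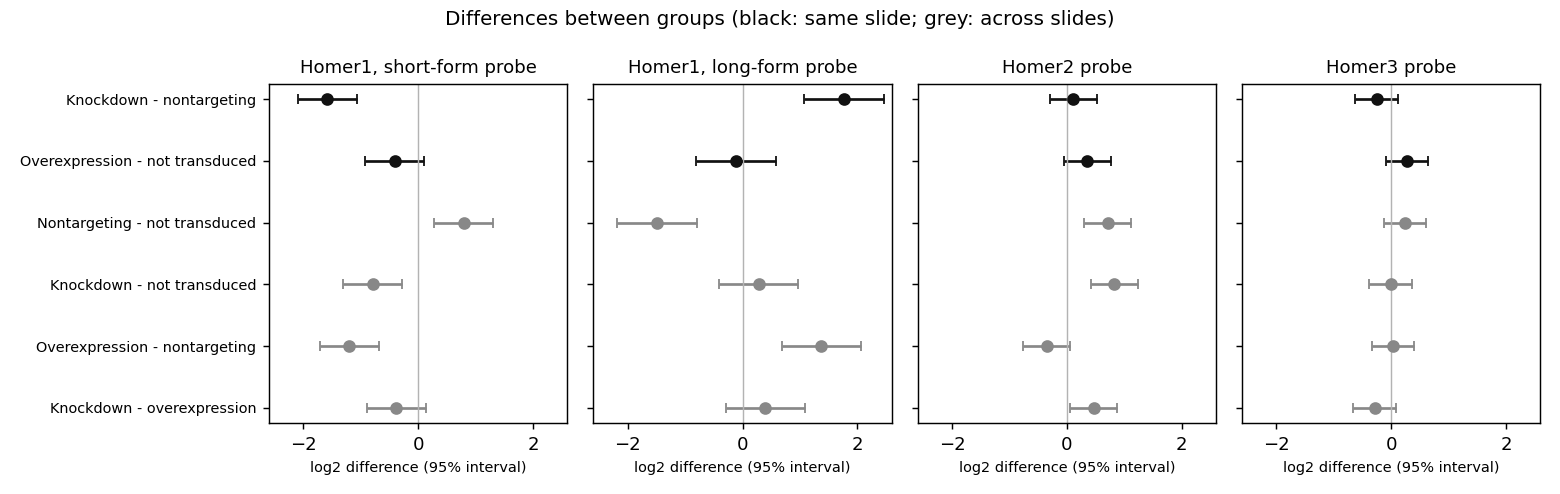
Log2 differences (horizontal axis) with 95% intervals for the 4 Homer probes in 6 comparisons (vertical axis), from the fit over 16 cultures; black comparisons lie within a slide and grey ones across slides. Between knockdown and nontargeting cultures the Homer1 probes lie at -1.58 and 1.77, and Homer2 and Homer3 at 0.11 and -0.26. The Homer1 intervals in comparisons that use knockdown or nontargeting cultures describe values used to select the probes and are no test.

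Homer proteins act through their binding partners, and 15 of 18 listed partner genes were measured. The list was chosen with earlier results of these data known, so its counts and p-values are a description. Between knockdown and nontargeting cultures 2 partners rose, 3 fell and 10 did not pass, where 10.5% of all genes rose and 11.1% fell. The partners' median log2 difference was 0.08, against -0.03 over all genes. Grm5, the group 1 metabotropic glutamate receptor mGluR5, rose by 1.31 (limma, adjusted p = 0.000218), and its other probe by 1.11. It averaged 9.14 ± 0.11 in knockdown cultures, against 7.83 ± 0.10 in nontargeting cultures (SD, n = 4 each). Shank3, a postsynaptic scaffold that Homer ties to the receptor, rose by 1.29 (limma, adjusted p = 8.83e-06), with means of 13.13 ± 0.07 in knockdown and 11.84 ± 0.21 in nontargeting cultures.

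Shank1, a second scaffold of that family, fell by 0.63 (limma, adjusted p = 0.0287), while Shank2 differed by 0.24 and did not pass. Dnm3, a dynamin that Homer holds beside the postsynaptic density, fell by 0.46 (limma, adjusted p = 0.0193). Itpr2, an IP3 receptor, fell by 0.54 (limma, adjusted p = 0.0324), but its other 2 probes differed by 0.30 and -0.21 and did not pass. Like the long-form Homer1 probe, Shank3 and Grm5 had their lowest group mean in nontargeting cultures, with Shank3 at 12.74 in overexpression and 13.10 in untransduced cultures and Grm5 at 9.11 and 9.03 in the same groups. Shank1 ran the other way, at 11.46 in knockdown cultures, against 12.09, its highest group mean, in nontargeting cultures, and at 11.35 in overexpression cultures, against 11.34 in untransduced cultures. No partner passed between overexpression and untransduced cultures (0 of 15, limma, median 0.02), where 0.00436% of all genes rose and 0% fell. None passed between knockdown and untransduced cultures (0 of 15, median 0.10), where 4.91% of all genes rose and 5.31% fell. Between nontargeting and untransduced cultures 1 rose and 2 fell of 15, where 11.6% of all genes rose and 11% fell.

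Homer1a belongs to the genes that neuronal activity induces, and 23 of 24 listed genes of that kind were measured. Between knockdown and nontargeting cultures 16 of them fell, 1 rose and 6 did not pass, where 11.1% of all genes fell and 10.5% rose. Their median difference was -1.0, against -0.03 over all genes. The 4 genes with the smallest p were Junb, Bdnf, Rgs2 and Fos. Junb, an AP-1 transcription factor, averaged 8.75 ± 0.29 in knockdown cultures, against 11.08 ± 0.11 in nontargeting cultures (limma, adjusted p = 6.48e-08). Bdnf, a neurotrophin, averaged 9.71 ± 0.04 in knockdown cultures, against 11.81 ± 0.15 in nontargeting cultures (limma, adjusted p = 1.51e-07). Rgs2, a regulator of G protein signalling, fell by 1.80, and Fos, another AP-1 factor, fell by 3.53 (limma, adjusted p = 1.20e-06 and 1.22e-06). The exception was Egr1, a zinc finger transcription factor, which rose by 0.98 (limma, adjusted p = 0.0122).

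The activity genes, like the short-form probe, set the nontargeting cultures apart from the other 3 groups. Their summed intensity ranged from 34200 to 41000 in knockdown cultures, against 74000 to 92800 in nontargeting cultures. It ranged from 30600 to 35300 in overexpression cultures, against 32300 to 39900 in untransduced cultures. Missing values count as 0 in these sums. Nr4a2 was measured in 2 of 4 nontargeting cultures, and Egr4 and Nr4a3 in 3 of 4 untransduced ones. Of the 23 genes 16 rose and 2 fell in nontargeting against untransduced cultures (median 0.96), where 11.6% of all genes rose and 11% fell. In knockdown against untransduced cultures 2 rose and 3 fell (median -0.02), where 4.91% of all genes rose and 5.31% fell. In overexpression against untransduced cultures 0 of 23 passed (limma, median -0.08), where 0.00436% of all genes rose and 0% fell. These comparisons share the nontargeting or untransduced samples and were chosen with earlier results known, so the counts are a description.

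**Figure D4:**
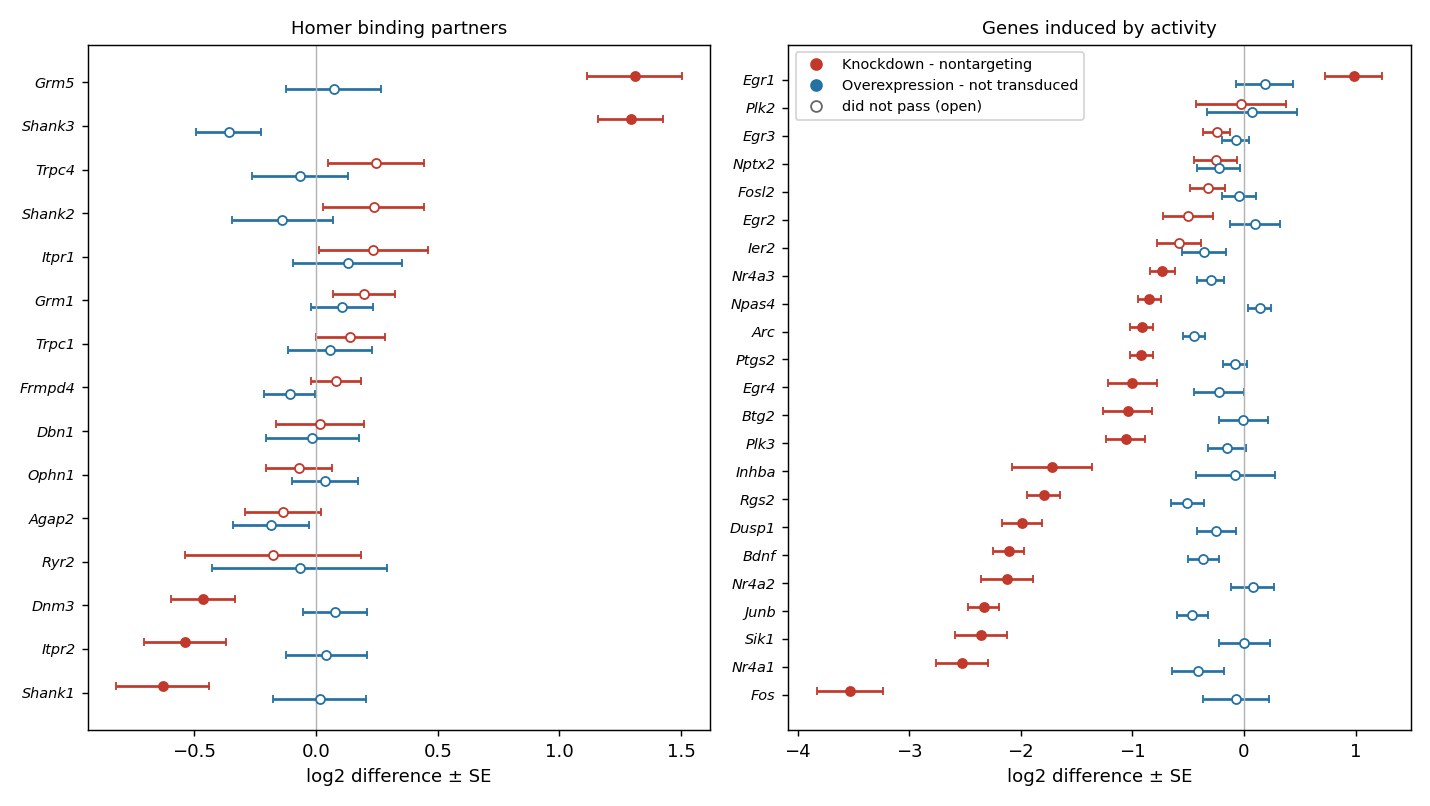
Log2 difference ± SE (horizontal axis) of 15 measured Homer binding partners (left) and 23 measured activity-induced genes (right), for knockdown minus nontargeting cultures in red and overexpression minus untransduced cultures in blue; filled points passed an adjusted p of 0.05 in limma. Among partners Grm5 and Shank3 rose in knockdown cultures, 16 of the activity genes fell there, and no blue point is filled.

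The genes whose log2 values ran most like each probe over the 16 cultures were ranked by Pearson's r, as a description, since the cultures share arrays, slides and groups. For the short-form probe these were Snrnp48 (0.944), Phf20 (0.943), Adprm (0.934), Rpp38 (0.933) and Camkmt (0.933). None of these 5 is on the activity list. For the long-form probe they included Lzic (0.979), Thrb (0.971), Grm5 (0.951) and Gria4 (0.946). Thrb is a thyroid hormone receptor and Gria4 an AMPA receptor subunit. For Homer2 they were Or2t47d (0.927), Fbp2 (0.914), Bsn (0.893), Cnnm2 (0.890) and Fezf2 (0.889), of which Bsn encodes the presynaptic scaffold bassoon. For Homer3 the values were lower, and included Rlig1 (0.815), Txnip (0.804), Msx2 (0.7997) and Sft2d2 (0.798).

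The long-form probe holds the word CTAACTC, read on the strand of the probe, and 70 of the probes kept hold it. An earlier pass over these data chose that word, so its values are a description. These probes averaged 0.38 higher in knockdown than in nontargeting cultures, with 25 called higher and 3 called lower (10.3% and 10.9% of all probes), while all other probes averaged -0.01. They averaged -0.38 in nontargeting against untransduced cultures (6 called higher and 26 called lower, where 11.2% and 11% of all probes were), 0.01 in knockdown against untransduced cultures and -0.03 in overexpression against untransduced cultures. The short-form, Homer2 and Homer3 probes do not hold the word. Its part in the long-form result was not tested.

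Markers of the cell types these cultures could hold were followed too. Between knockdown and nontargeting cultures 10.5% of all genes rose and 11.1% fell, and the marker counts for that comparison are to be read against these shares. Neuronal markers were bright in every culture, and 1 of 7 fell while 0 rose (limma). Their summed intensities were 279000 to 302000 in knockdown and 194000 to 272000 in nontargeting cultures. A missing value counts as 0 in such a sum. Stmn2, with a mean of 15.91 in both groups, was measured in only 2 of 4 nontargeting cultures, so these 2 ranges are not comparable. Of 5 interneuron markers 4 rose in knockdown against nontargeting cultures, with summed intensities of 15600 to 22100 in knockdown and 11100 to 17100 in nontargeting cultures. The sums were 26200 to 37400 in overexpression and 29900 to 42900 in untransduced cultures. In nontargeting against untransduced cultures all 5 fell, where 11% of all genes did. Of 6 astrocyte markers 2 rose and 1 fell, and their sum was 59900 to 71400 in knockdown cultures, against 34600 to 47600 in nontargeting cultures. It was 70500 to 92100 in overexpression cultures, against 51200 to 90000 in untransduced cultures. The brightest of these markers was Slc1a3, so it weighed most in the sum, at 15.54 in knockdown and 14.38 in nontargeting cultures. Slc1a2 also rose, by 0.59, but its other probe differed by 0.03 and did not pass. Gfap fell by 1.57 (limma, adjusted p = 0.0320) and by 1.78 on its other probe. The other 3 markers did not pass. Of 5 oligodendrocyte markers 1 rose and 0 fell. For microglia 2 of 5 markers passed the dim filter, and the defining markers Aif1, Cx3cr1 and Itgam did not. Fewer cells of a type and less RNA per cell cannot be told apart in such cultures, and the part of cell composition in the Homer results was not tested.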

How the data were processed

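Total RNA of 16 cultures was labelled with Cy3 (replicates 1 and 3) or Cy5 (replicates 2 and 4) and hybridised to 8 arrays. Groups were taken from the source labels. A description field naming adult tissue contradicts the culture labels and was not used. The deposited intensity values are the mean signal of each spot and the median of its local background, not normalized, per the file headers, which name Agilent Feature Extraction 10.7.3.1; the software is also named in the submitters' processing notes. The authors' deposited series matrix holds log2 values that matched the median signal minus the background median, centred on each column (slope 1, r = 1); how they were used by the authors is not given in the sources used here.

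Here, limma 3.58.1 in R 4.3.3, with statmod 1.5.0 and the package data.table (version 1.17.8), applied normexp with an offset of 50, loess within arrays with control spots at weight 0, and Aquantile between arrays. Outlier spots were set to missing and spots of a probe averaged. Probes well above background in at least 4 samples, with at least 12 values in all and 2 per group, were kept (27294). A linear model over all 4 groups with dye as a term and array as a random block (correlation 0.562) gave two-sided tests, with Benjamini-Hochberg adjustment over all probes kept and a threshold of 0.05. For gene lists the probe with the highest mean stood for a gene (22945 genes). The script was tested on simulated data. The precision is limited by the 8 arrays. Sequences are those in the scanner output and gene positions those of RefSeq.

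The named genes were all Homer probes, the 5 genes most like each by Pearson's r, partners that passed in knockdown or overexpression, and the 4 activity genes with the smallest p; some of the genes most like a probe are not reported here. The members and lists were chosen with earlier results of these data known. Same-numbered samples deviated together in knockdown against nontargeting cultures (lowest correlation 0.136, and 0.07 with the dye removed, since numbers and dyes coincide). The lowest correlation was 0.166 in knockdown against untransduced cultures and 0.132 in knockdown against overexpression cultures. With the dye removed these were 0.0389 and 0.0299. In the other comparisons the lowest correlation was -0.191 to 0.03. Other settings tried were no filter, processed signals, quantile normalization, the series matrix, arrays as single values, 2 groups alone, a replicate block and leaving out samples or, added after seeing the data, arrays.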

Additional observations from a re-analysis of the deposited data

Results flagged for a closer look

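Homer3 in overexpression replicate 3 read 7.69, below the other overexpression cultures at 7.95 to 7.98. The gap to the nearest of them was 0.897 of the range of the group, above the 95% critical value of Dixon's test. It was the only such sample among 16 combinations of probe and group tested, and chance flags about 5% of groups. Without it the Homer3 difference between overexpression and untransduced cultures still did not pass in limma.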

How the results depend on the processing

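Each comparison was recomputed under 19 other settings. The Homer1 probes were chosen for differences of opposite sign in these data, so the stability of their signs is a description. Their differences between knockdown and nontargeting cultures kept their signs in all settings, at -1.99 to -1.37 for the short-form and 1.67 to 2.15 for the long-form probe. They were -1.99 and 1.96 with processed signals, the long-form one 2.15 with the series matrix, and the short-form one -1.79 and -1.37 without the knockdown array of replicates 1 and 2, or 3 and 4. Leaving out 1 sample gave -1.64 to -1.53 and 1.72 to 1.85. Homer2 and Homer3 were not called there under any setting.

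Between overexpression and untransduced cultures the long-form difference was -0.29 to 0.09 without 1 sample (0.06 without untransduced replicate 4, 0.09 without overexpression replicate 2), 0.27 without the untransduced array of replicates 3 and 4, and 0.19 without the overexpression array of replicates 1 and 2. Homer2 was -0.07 and 0.79 (called) without the untransduced array of replicates 1 and 2, or 3 and 4. Its calls against untransduced cultures were also lost with processed signals (0.99 in knockdown, 0.89 in nontargeting cultures), without either knockdown array (0.86 and 0.79) and, for nontargeting cultures, with 2 groups alone (0.71) or without the nontargeting array of replicates 1 and 2 (0.69). With the series matrix Homer2 passed between knockdown and overexpression cultures (0.89), but there the median of all probes shifted by 0.35.

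Differences near 0 changed sign. For knockdown over untransduced cultures the long-form probe was -0.11 without the untransduced array of replicates 1 and 2. Homer3 was -0.09 to 0.10 without 1 sample, 0.25 with the series matrix (all-probe shift 0.19), 0.00, 0.02 and 0.10 without knockdown replicate 2, knockdown replicate 4 or untransduced replicate 2, and 0.02 and 0.13 without the knockdown or untransduced array of replicates 1 and 2. For overexpression over nontargeting cultures it was -0.05 to 0.11 without 1 sample, -0.13 with the series matrix (all-probe shift -0.20), -0.05 and -0.02 without nontargeting or overexpression replicate 4, and -0.03 without the overexpression array of replicates 1 and 2.

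The replicate block changed no Homer call; it called 6701 probes between knockdown and nontargeting cultures, against 5767 without it, 3533 between knockdown and untransduced and 3726 between knockdown and overexpression cultures. The 5767 became 3348 and 3555 without either knockdown array, and the 2769 between knockdown and untransduced cultures became 1198, 1320 and, with arrays as single values, 1213. The 2822 between knockdown and overexpression cultures became 4969 with 2 groups alone, 6478 with the series matrix, 1234 with arrays as single values, 1216 and 1367 without either knockdown array, and 1219 and 1350 without either overexpression array. With 2 groups alone 3773 of 6070 were called between nontargeting and untransduced cultures. Without either overexpression array 3521 and 3626 of 6145 were called between overexpression and nontargeting cultures. The single probe called between overexpression and untransduced cultures became 0 with 2 groups alone or arrays as single values, 2 with processed signals, 4 with the series matrix, 0 to 2 without 1 sample, 45 without either overexpression array, and 7 and 35 without either untransduced array. The cause of these shifts was not tested.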
